A study of Mus musculus with 18 samples.

Results

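Expression of 10 genes that mark resting fibroblasts was followed in stromal cells of the mouse salivary gland over 23 days after adenovirus delivery. The genes were Dpt, Pi16, Dcn, Lum, Gsn, Clec3b, Mfap5, Cd34, Ly6a and Apod, taken as a list by symbol out of 55401 gene identifiers counted, and all 10 passed the filter on low counts. The cells were stromal cells bearing gp38, also called podoplanin, which flow cytometry had isolated out of the salivary glands of wild-type Balb/c mice aged 8 to 12 weeks. Uninfected glands gave the hour 0 group (replicates 10 to 12). The other groups came from mice whose submandibular duct had been cannulated with a replication-defective adenovirus 5, and whose glands were taken after 3 hours (replicates 4 to 6), after 1 day (replicates 13 to 15), after 2 days (replicates 16 to 18), after 8 days (replicates 1 to 3) or after 23 days (replicates 7 to 9). Each group held 3 libraries, each from a mouse of its own. No group was cannulated without virus, so the procedure and the virus cannot be told apart in any comparison with hour 0.

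Fibroblasts at rest maintain a matrix of collagen fibrils, to which small leucine-rich proteoglycans and dermatopontin bind, and of elastic microfibrils. In many organs a resting population around vessels, often called adventitial or universal fibroblasts, carries Pi16, Dpt, Cd34 and the surface antigen Sca-1 (the product of Ly6a) and has been described as a source of more specialised fibroblasts. Gelsolin severs and caps actin filaments and also circulates as a secreted form, tetranectin (Clec3b) binds plasminogen, and apolipoprotein D (Apod) is a lipocalin that carries small lipids. The virus is used in this gland to induce ectopic lymphoid structures, which were not measured here. The question addressed is how the resting programme of the sorted cells moved after virus delivery.

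Total counts per library ran from 4398234 to 15234431. The replicate numbers follow sets of libraries that the labels do not name. Replicates 10 to 18 (hour 0, day 1, day 2) carried more stray counts than replicates 1 to 9 (hour 3, day 8, day 23). These were taken on 1781 receptor genes of smell and taste as CPM (counts scaled to a common library total) per kb of exon. For this value alone the total left out mitochondrial counts. The mean was 0.145 ± 0.0379 for hour 0, 0.0814 ± 0.0322 for day 1 and 0.329 ± 0.0121 for day 2. It was 0.00499 ± 0.000955 for hour 3, 0.00347 ± 0.000543 for day 8 and 0.00250 ± 0.000452 for day 23 (SD, n = 3). Scaled to the length of each of the 10 genes, this background came to at most 4.88% of the level, for Pi16 at day 2. The level there was scaled to all counts, mitochondrial ones included. Time and library set cannot be told apart where hour 3, day 8 or day 23 is compared with hour 0, so the comparisons within a set are given first. The share of counts from mitochondrial genes also moved with the groups. It was 5.62 to 7.32% at hour 0, 3.11 to 4.38% at day 1 and 5.26 to 6.21% at day 2, and 6.16 to 8.99% at hour 3, 12.8 to 15.9% at day 8 and 7.67 to 11.2% at day 23. Its part in the results was not tested. Of 6 markers that define fibroblasts (Pdgfra, Col1a1, Col1a2, Col3a1, Pdpn and Thy1) all were detected in every group.

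On GRCm38 (mm10), Dcn (ENSMUSG00000019929, chromosome 10, 97479609 to 97518143) and Lum (ENSMUSG00000036446, chromosome 10, 97565128 to 97572703) are neighbours with 46984 bp and 0 annotated genes between them. Dpt (ENSMUSG00000026574, 164796644 to 164824266) and Cd34 (ENSMUSG00000016494, 194938819 to 194961279) are both on chromosome 1. Gsn (ENSMUSG00000026879) is on chromosome 2, 35256380 to 35307892, and Mfap5 (ENSMUSG00000030116) on chromosome 6, 122505845 to 122529290. Clec3b (ENSMUSG00000025784) is on chromosome 9, 123150946 to 123157432, and Ly6a (ENSMUSG00000075602) on chromosome 15, 74994877 to 74998031. Apod (ENSMUSG00000022548) is on chromosome 16, 31296192 to 31314808, and Pi16 (ENSMUSG00000024011) on chromosome 17, 29317680 to 29330593. All values count reads on exons of these protein-coding genes. Of the 50-base runs in Ly6a transcripts 19.0% also occur in Ly6c1, Ly6c2, Ly6i or I830127L07Rik, so its level is uncertain to the extent that reads were shared among them. Antisense genes overlap exons of Pi16 (AC162182.1, 222 bp) and Cd34 (Gm16897, 148 bp), with 131 and 157 counts over all libraries beside 34307 for Pi16 and 34379 for Cd34.

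RefSeq promoter windows on GRCm38.p6 were held for 5 of the 10 genes (Dpt, Pi16, Gsn, Cd34 and Apod), 7 windows in all. The 4 windows that reach outside the annotated gene are shown, for Dpt, Gsn, Cd34 and Apod. The window of Pi16 and the other windows of Gsn lie inside the gene. Each run is the part of the 250 bases before the RefSeq start that lies outside the annotated gene, 5′ to 3′, and capitals mark E-boxes (CANNTG) and STAT sites (TTCNNNGAA) found on either strand.
Dpt, chr1:164796413-164796643, + strand: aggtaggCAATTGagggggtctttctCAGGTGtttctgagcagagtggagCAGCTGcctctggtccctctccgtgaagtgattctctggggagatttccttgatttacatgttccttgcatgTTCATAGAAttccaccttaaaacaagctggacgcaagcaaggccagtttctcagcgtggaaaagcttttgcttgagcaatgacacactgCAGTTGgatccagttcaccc
Gsn, chr2:35256109-35256358, + strand: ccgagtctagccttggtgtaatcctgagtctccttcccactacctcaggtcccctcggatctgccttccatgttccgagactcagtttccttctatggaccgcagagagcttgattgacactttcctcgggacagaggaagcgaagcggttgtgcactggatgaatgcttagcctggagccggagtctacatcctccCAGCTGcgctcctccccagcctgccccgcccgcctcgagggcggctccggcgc
Cd34, chr1:194938571-194938818, + strand: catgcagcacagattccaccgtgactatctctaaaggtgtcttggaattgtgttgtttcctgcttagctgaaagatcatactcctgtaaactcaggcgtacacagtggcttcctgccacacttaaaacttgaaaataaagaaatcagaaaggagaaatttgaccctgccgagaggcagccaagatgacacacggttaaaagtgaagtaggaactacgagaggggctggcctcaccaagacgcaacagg
Apod, chr16:31314809-31315058, - strand: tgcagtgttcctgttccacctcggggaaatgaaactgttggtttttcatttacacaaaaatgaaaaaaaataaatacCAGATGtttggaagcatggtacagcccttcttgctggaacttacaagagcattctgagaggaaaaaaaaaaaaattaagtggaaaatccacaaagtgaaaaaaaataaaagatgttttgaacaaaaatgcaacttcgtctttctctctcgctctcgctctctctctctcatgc
The full 250 bases before Dpt held 6 E-boxes, 4 of them in the run shown, and 0.274% of 32851 mouse promoter windows of that length held as many. At least 1 E-box occurs in 66.2% of those windows. The run of Gsn shown and that of Apod had 1 each and that of Cd34 had 0. Dpt also had 1 STAT match, a motif present in 7.02% of windows, and its letters and the E-boxes do not overlap there. A TATA box (TATAAA) and an AP-1 site (TGANTCA) occur in 12.4% and 6.75% of windows and were not among the letters of the 7 windows. A match of letters is a description of the window and not of binding.

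In uninfected glands the 10 genes took 3.15% ± 0.513 of all counts (SD, n = 3), of which Gsn alone took 2.22% ± 0.407. Levels between genes were compared per kb of exon, as CPM scaled by TMM (trimmed mean of M values) and divided by exon length, here called RPKM. At hour 0 Gsn was the highest at 5889 ± 988 RPKM. Dcn followed at 712 ± 73.1 and Apod at 588 ± 128, with overlapping libraries, then Clec3b at 413 ± 54.3, Lum at 288 ± 22.7 and Dpt at 125 ± 34.3. The lowest were Ly6a at 68.5 ± 5.45, Cd34 at 49.3 ± 7.90, Pi16 at 45.8 ± 11.4 and Mfap5 at 12.6 ± 1.55, and only Cd34 and Pi16 among these neighbours overlapped. Gelsolin and the proteoglycans thus stood above the surface antigens in these cells, and the microfibril gene Mfap5 stood below them. All further levels are TMM-scaled CPM of one gene across libraries.

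**Figure D1:**
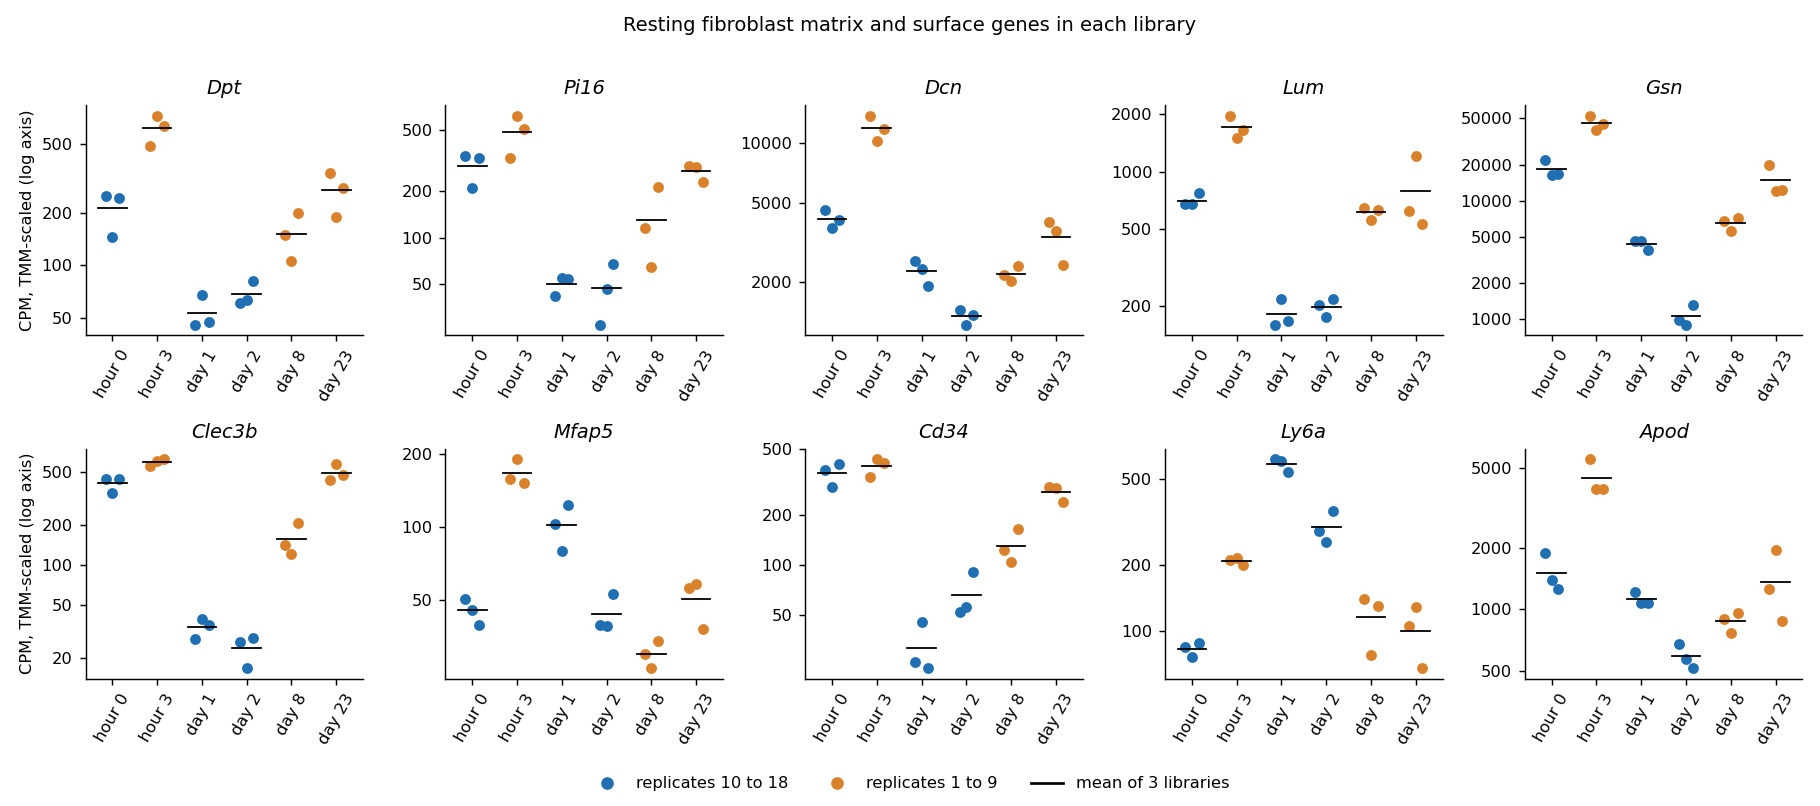
TMM-scaled CPM (log axis, its range set for each gene) of the 10 genes in all 18 libraries, by time group; points are libraries, coloured by library set, and bars are means of 3. Clec3b libraries lie between 16.7 and 38.7 CPM at day 1 and day 2 and at or above 348 CPM at hour 0, while Ly6a libraries lie at 75.3 to 88.1 CPM at hour 0 and at 537 to 618 CPM at day 1.

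One day after cannulation, 7 of the 10 genes had fallen against hour 0 and 2 had risen (edgeR quasi-likelihood test, Benjamini-Hochberg adjusted p under 0.05). Over all 27525 genes tested, 12.8% fell and 9.67% rose in this comparison. Among the 14147 of them with at least 5 CPM in 3 libraries, here called well expressed and fitted on their own, 21.1% fell and 21.2% rose. The largest falls were those of Clec3b and Cd34, and the rises were those of Ly6a and Mfap5. The median log2 change of the 10 genes was -1.99, beside -0.41 over all genes tested and -0.04 over the well-expressed ones. In these bulk samples fewer cells of a type and less RNA per cell cannot be told apart. At day 2 the fall covered 8 genes, and only Ly6a was still called higher. Over all genes 9.63% fell and 5.12% rose at day 2, and the medians were -1.74 for the 10 genes and 0.29 for all genes. Of the well-expressed genes 17.3% fell and 12.2% rose, with a median of 0.00. The share of rises among all calls at day 2 was 34.7% with TMM, 52.7% with DESeq2 size factors and 66.7% with library totals, which moved the all-gene median by 0.21 and 0.37. The numbers called were the same in all 15 alternative analyses of day 1 and all 14 of day 2, including each fit that left out 1 library.

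Among the proteoglycans, decorin (Dcn), which binds collagen fibrils and transforming growth factor beta, stood at 4603, 3753 and 4112 CPM in the hour 0 libraries. It stood at 2564, 2318 and 1919 CPM at day 1 and at 1448, 1225 and 1373 CPM at day 2. The 3 groups did not overlap, and each later group was lower than the one before. The log2 change against hour 0 was -0.87 ± 0.193 at day 1 (SE, edgeR adjusted p = 0.000981) and -1.62 ± 0.197 at day 2 (adjusted p = 3.04e-07). Lumican (Lum), its neighbour on the chromosome and a proteoglycan of the same family, stood at 673, 674 and 769.9 CPM at hour 0, at 159, 217 and 166 CPM at day 1, and at 201, 174 and 217 CPM at day 2. Lum had thus reached its low level by day 1, with day 1 and day 2 libraries overlapping, whereas Dcn was lower at day 2 than at day 1. The log2 change of Lum was -1.97 ± 0.222 at day 1 (adjusted p = 4.31e-08) and -1.84 ± 0.221 at day 2 (adjusted p = 2.76e-07). The day 2 against day 1 change was -0.75 ± 0.193 for Dcn (adjusted p = 0.00638) and 0.13 ± 0.215 for Lum (adjusted p = 0.659). With scaling by library totals alone that of Dcn was -0.48 (adjusted p = 0.0826).

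Dermatopontin (Dpt), which binds decorin and collagen, stood at 252, 147 and 246 CPM at hour 0. At day 1 it stood at 45.5, 67.4 and 47.3 CPM, and at day 2 at 61.0, 62.9 and 81.4 CPM. Every day 1 and day 2 library lay below every hour 0 library, and days 1 and 2 overlapped. Its log2 change was -2.01 ± 0.247 at day 1 (edgeR adjusted p = 2.01e-07) and -1.65 ± 0.245 at day 2 (adjusted p = 8.06e-06). Mfap5, a glycoprotein of elastic microfibrils, took another course, at 50.6, 45.5 and 39.5 CPM at hour 0, 103, 79.7 and 123 CPM at day 1, and 39.2, 38.9 and 52.8 CPM at day 2. Day 1 was the high group, and hour 0 and day 2 overlapped. Mfap5 rose by day 1 (log2 change 1.18 ± 0.195, adjusted p = 2.66e-05) and fell from day 1 to day 2 (log2 change -1.22 ± 0.196, adjusted p = 5.55e-05). Its difference between day 2 and hour 0 was -0.05 ± 0.196 on the log2 scale (adjusted p = 0.919), and this value changed sign with the scaling, to 0.32 with library totals alone.

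Of the secreted proteins, gelsolin (Gsn) stood at 22191, 16703 and 16883 CPM at hour 0. It stood at 4548, 4624 and 3876 CPM at day 1 and at 975, 897 and 1313 CPM at day 2. The groups were separate and fell in steps. The log2 change against hour 0 was -2.10 ± 0.228 at day 1 (edgeR adjusted p = 2.22e-08) and -4.13 ± 0.249 at day 2 (adjusted p = 6.85e-13), a 17.5-fold difference in mean level, and that from day 1 to day 2 was -2.03 ± 0.228 (adjusted p = 3.40e-07). As a share of all counts Gsn went from 2.22% ± 0.407 at hour 0 to 0.557% ± 0.0622 at day 1 and 0.163% ± 0.0321 at day 2 (SD, n = 3). Tetranectin (Clec3b) stood at 443, 348 and 438 CPM at hour 0, at 27.5, 38.7 and 35.4 CPM at day 1, and at 26.1, 16.7 and 28.1 CPM at day 2. Every later library lay far under every hour 0 library, and day 1 and day 2 overlapped. The log2 change of Clec3b was -3.60 ± 0.223 at day 1 (adjusted p = 4.08e-13) and -4.12 ± 0.231 at day 2 (adjusted p = 3.40e-13), and the step from day 1 to day 2 was -0.52 ± 0.211 (adjusted p = 0.0719). That step passed the threshold with no filter on low counts (-0.79, adjusted p = 0.000862), in the fit of the 2 groups alone (-0.69, adjusted p = 0.0331) and in that of the set of 9 libraries (-0.70, adjusted p = 0.0169).

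Pi16, a CAP-family protein anchored to the cell surface or secreted, stood at 339, 208 and 326 CPM at hour 0. At day 1 it stood at 41.8, 54.7 and 54.2 CPM and at day 2 at 27.3, 46.5 and 67.3 CPM. Both later groups lay wholly below hour 0, and day 2 spread around day 1. The log2 change of Pi16 was -2.54 ± 0.318 at day 1 (edgeR adjusted p = 2.90e-07) and -2.62 ± 0.321 at day 2 (adjusted p = 3.57e-07). Apod stood at 1889, 1399 and 1258 CPM at hour 0, at 1219.6, 1075 and 1078 CPM at day 1, and at 677, 568 and 514 CPM at day 2. The day 1 libraries lay just under hour 0 and the day 2 libraries under both. For Apod the day 1 difference did not pass the test (log2 change -0.43 ± 0.223, adjusted p = 0.176), and the day 2 fall did (-1.37 ± 0.227, adjusted p = 3.93e-05). From day 1 to day 2 Apod fell by 0.94 ± 0.225 on the log2 scale (adjusted p = 0.00353).

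The surface antigens moved in opposite directions. Cd34, a sialomucin of resting fibroblasts and of endothelium, stood at 376, 296 and 407 CPM at hour 0, at 26.0, 45.7 and 24.1 CPM at day 1, and at 52.3, 55.9 and 91.1 CPM at day 2. It was lowest at day 1, and every day 2 library lay above every day 1 library. The log2 change of Cd34 was -3.49 ± 0.248 at day 1 (edgeR adjusted p = 5.28e-12) and -2.43 ± 0.237 at day 2 (adjusted p = 6.12e-09), and it rose by 1.06 ± 0.232 between them (adjusted p = 0.00161). Ly6a, which encodes the GPI-anchored antigen Sca-1 and is known as interferon-inducible, stood at 84.4, 75.3 and 88.1 CPM at hour 0, at 618, 608 and 537 CPM at day 1, and at 288, 256 and 358 CPM at day 2. It was highest at day 1 with no overlap between the 3 groups. The log2 change of Ly6a was 2.83 ± 0.219 at day 1 (adjusted p = 3.07e-11), a 7.11-fold difference in mean level, and 1.86 ± 0.212 at day 2 (adjusted p = 9.98e-08). From day 1 to day 2 Ly6a fell by 0.97 ± 0.206 on the log2 scale (adjusted p = 0.00125). In the order of RPKM levels Ly6a moved from 7th at hour 0 to 2nd at day 1 (488 ± 36.4 RPKM, overlapping Apod), while Cd34 moved to last (4.38 ± 1.64 RPKM).

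Between day 1 and day 2, 5 of the 10 genes fell (Dcn, Gsn, Mfap5, Ly6a and Apod) and Cd34 rose, where 11.2% of all genes tested fell and 12% rose. The median change was -0.63 for the 10 genes and 0.78 for all genes. Over the well-expressed genes it was -0.07, and 20.3% of them fell and 18.3% rose. Other scalings moved the all-gene median of this comparison by 0.21 (DESeq2 size factors) and 0.27 (library totals), and the share of rises among all calls from 51.8% to 71.0% and 77.9%. The day 2 libraries held 4398234 to 6313619 counts, beside 8734113 to 10635986 at day 1, and the highest receptor-gene background of the 6 groups. The part of either in these steps was not tested. The sum of the 10 genes was 1.12% ± 0.117 of counts at day 1 and 0.573% ± 0.0489 at day 2 (SD, n = 3).

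**Figure D2:**
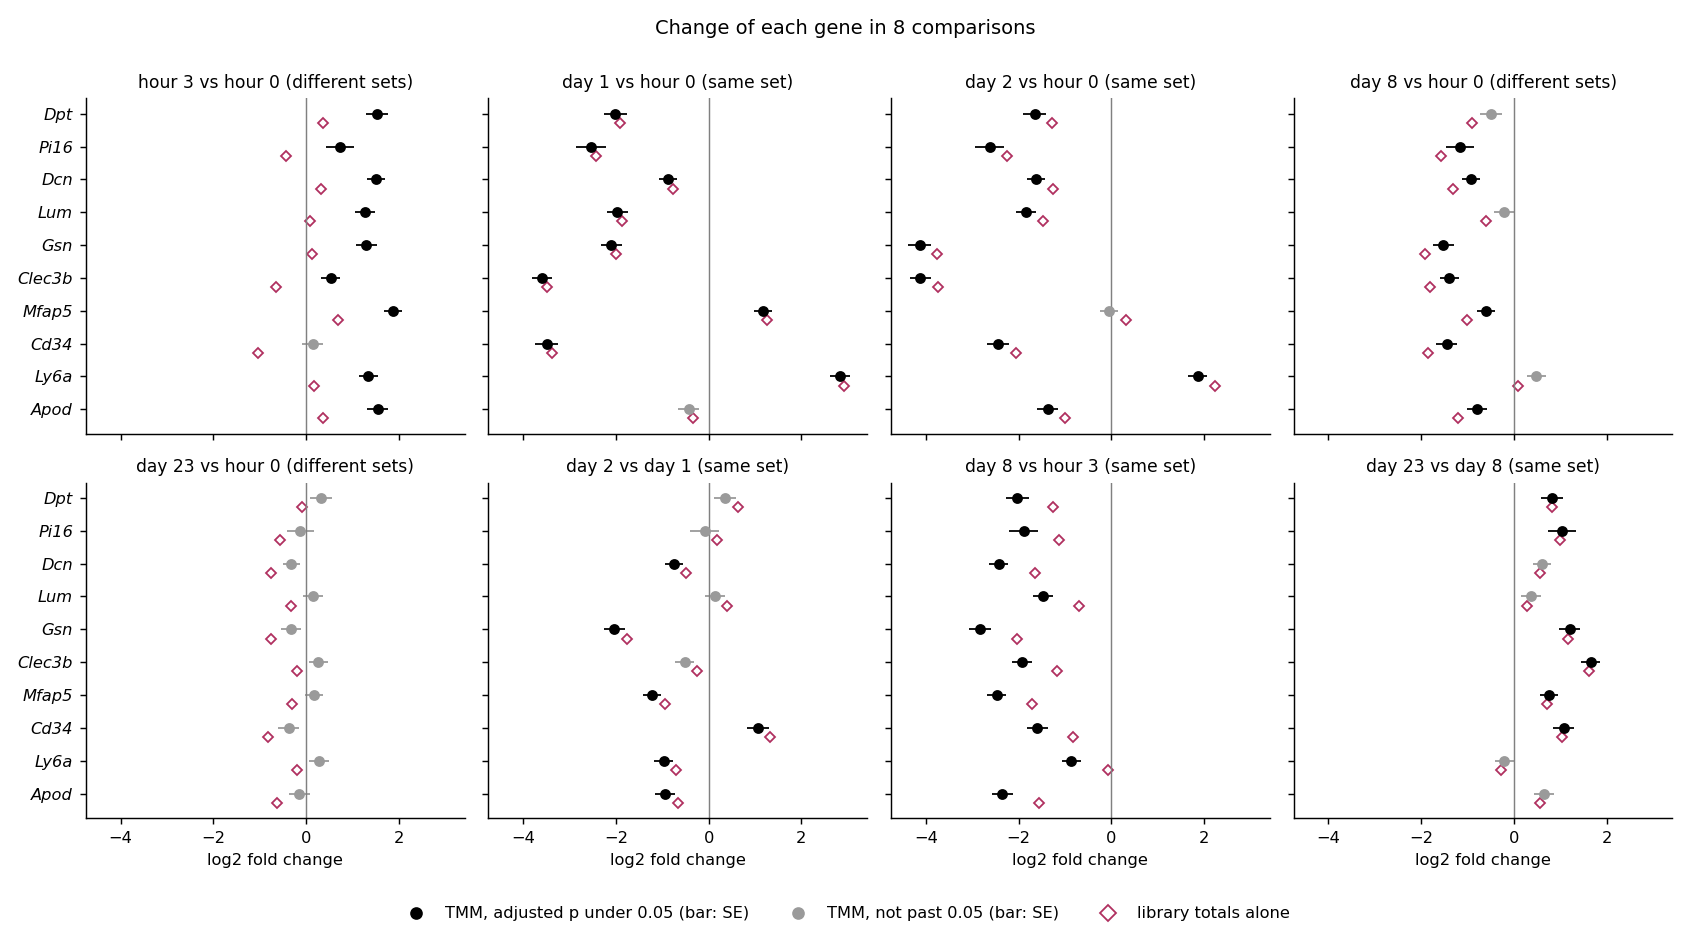
Log2 fold change of each gene in 8 comparisons, first group minus second; circles are the TMM-scaled edgeR fit with SE bars, black where the adjusted p is under 0.05, and open diamonds the same fit scaled by library totals alone. At day 1 and day 2 both scalings place Clec3b, Cd34, Pi16 and Gsn far below 0 and Ly6a above it; at hour 3 the diamonds run from -1.02 for Cd34 to 0.70 for Mfap5.

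In the set of hour 3, day 8 and day 23, all 10 genes were lower at day 8 than at hour 3, where 14.1% of all genes tested fell and 16.5% rose. The median log2 change was -1.97, beside 0.00 over all genes. Of the well-expressed genes 27.9% fell and 30.9% rose, with a median of 0.08. Gsn stood at 52782, 39639 and 45268 CPM at hour 3 and at 6765, 5532 and 7151 CPM at day 8, with no overlap, and fell by 2.82 ± 0.234 on the log2 scale (edgeR adjusted p = 7.89e-11). Mfap5 went from 157, 190.1 and 151 CPM to 29.8, 26.1 and 33.9 CPM, also without overlap (log2 change -2.47 ± 0.203, adjusted p = 6.34e-11). For Dcn the libraries held 13648, 10172 and 11667 CPM at hour 3 and 2161, 2028 and 2413 CPM at day 8 (-2.43 ± 0.202, adjusted p = 8.30e-11). These 3 genes had the largest falls of the 10. The other log2 changes ran from -2.35 for Apod to -0.86 for Ly6a. Scaling by library totals moved the all-gene median by 0.76 in this comparison and the share of rises among all calls from 53.9% to 81.9%. The falls of 9 genes passed the threshold under it, and that of Ly6a did not (-0.07, adjusted p = 0.983). The mitochondrial share of counts was higher in every day 8 library than in every hour 3 library.

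From day 8 to day 23 part of the resting genes rose. Of the 10, 6 rose and none fell (also none by DESeq2, limma-voom or an unadjusted p under 0.05), where 2.25% of all genes tested rose and 3.08% fell, and the median log2 change was 0.80 beside 0.00 over all genes. Of the well-expressed genes 5.65% rose and 6.67% fell. Clec3b stood at 139.9, 120.0 and 207 CPM at day 8 and at 433, 573 and 471 CPM at day 23. Gsn stood at 6765, 5532 and 7151 CPM and then at 20217, 12194 and 12409 CPM. For both genes every day 23 library lay above every day 8 library. The log2 change was 1.66 ± 0.205 for Clec3b (edgeR adjusted p = 1.63e-05) and 1.20 ± 0.222 for Gsn (adjusted p = 0.00128). Cd34, at 124, 105 and 165 CPM and then at 298, 293 and 241 CPM, did not overlap either and rose by 1.08 ± 0.227 (adjusted p = 0.00411). The rises of Pi16 (1.03 ± 0.303, adjusted p = 0.0420), Dpt (0.83 ± 0.239, adjusted p = 0.0379) and Mfap5 (0.76 ± 0.198, adjusted p = 0.0202) were nearer to the threshold. In the fit of the 2 groups alone, and without day 8 replicate 1, day 8 replicate 2 or day 23 replicate 7, these last 3 rises no longer passed and 3 genes were called. Dpt also missed the threshold with library totals alone (adjusted p = 0.0537), with limma-voom (0.0799), without the day 2 libraries (0.0513) and without day 23 replicate 9 (0.0870), and its day 8 and day 23 libraries overlapped (106 to 200.4 and 190.3 to 341 CPM). Without day 23 replicate 8 neither Pi16 (adjusted p = 0.0608) nor Mfap5 (0.0730) passed. Pi16 was not called in the fit of the set of 9 libraries either (0.0643), nor Mfap5 with no filter on low counts (0.0747). Dcn (0.61 ± 0.192, adjusted p = 0.0635), Apod (0.65 ± 0.223, adjusted p = 0.0908), Lum (0.36 ± 0.214, adjusted p = 0.426) and Ly6a (-0.21 ± 0.206, adjusted p = 0.749) did not pass. DESeq2 called Dcn and Apod as well (adjusted p = 0.00691 and 0.0365), for 8 genes in all. The fit without day 23 replicate 9 called both too (0.0189 and 0.0158) and lost Dpt, for 7 in all. Limma-voom (0.0146) and the filter of 5 CPM (0.0492) called Dcn.

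Comparisons of these 3 times with hour 0 cross the library sets. At day 8, 7 of the 10 genes were lower than at hour 0 and none higher (1, Ly6a, at an unadjusted p under 0.05, and none by DESeq2 or limma-voom), where 32.7% of all genes tested were lower and 11.2% higher. The median was -0.86 for the 10 genes and -0.68 for all genes. Over the well-expressed genes the median was -0.05, and 19.4% of them were lower and 14.9% higher. With library totals alone the share of higher calls among all calls went from 25.5% to 10.3%. Gsn (-1.52 ± 0.224), Cd34 (-1.45 ± 0.228) and Clec3b (-1.40 ± 0.204) were the lowest on the log2 scale, with edgeR adjusted p of 1.39e-05, 3.19e-05 and 1.26e-05. Those of Dpt (-0.50 ± 0.238, adjusted p = 0.0878), Lum (-0.20 ± 0.214, adjusted p = 0.451) and Ly6a (0.49 ± 0.206, adjusted p = 0.0557) did not pass. Dpt was called lower with library totals alone (-0.90, adjusted p = 0.00589), with DESeq2 size factors (-0.63, adjusted p = 0.0359), with DESeq2 (-0.63, adjusted p = 0.0469), without hour 0 replicate 11 (-0.70, adjusted p = 0.0290) and without day 8 replicate 3 (-0.74, adjusted p = 0.0353). Lum was called lower with library totals alone (-0.60, adjusted p = 0.0182). Ly6a was called higher with no filter on low counts (0.70, adjusted p = 0.00241) and without day 8 replicate 2 (0.58, adjusted p = 0.0409). That of Mfap5 passed (-0.59 ± 0.196, adjusted p = 0.0182) but not without hour 0 replicate 10 (-0.49, adjusted p = 0.0753) or day 8 replicate 1 (-0.58, adjusted p = 0.0569), nor with no filter (-0.37, adjusted p = 0.175).

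At day 23 none of the 10 genes was called against hour 0 by edgeR, none had an unadjusted p under 0.05, and the median was 0.02, beside -0.53 over all genes. Over the well-expressed genes it was -0.03, with 13.8% lower and 9.65% higher. Over all genes 25.4% were lower and 8.51% higher, and the share of higher calls went from 25.1% to 6.05% with library totals alone. DESeq2 called Dcn lower (-0.44, adjusted p = 0.0424), limma-voom called none, and the fit without day 23 replicate 7 called Gsn lower (-0.59, adjusted p = 0.0423). With library totals alone 4 genes were lower, namely Cd34 (-0.82, adjusted p = 0.00802), Dcn (-0.76, adjusted p = 0.00565), Gsn (-0.75, adjusted p = 0.0171) and Apod (-0.63, adjusted p = 0.0245). Levels at day 23 spread widely for some genes. Lum stood at 621, 1207 and 534 CPM and Apod at 1263, 1974 and 875 CPM, replicate 8 being the highest for both. A difference that misses the threshold does not show that day 23 equals hour 0.

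The hour 3 values depend on how the libraries are scaled. With TMM, 9 of the 10 genes were called higher than at hour 0 and none lower (none at an unadjusted p under 0.05, by DESeq2 or by limma-voom), where 16.9% of all genes tested were higher and 43.1% lower. The medians were 1.33 for the 10 genes and -1.41 for all genes. Over the well-expressed genes the median was -0.23, and 28.5% of them were higher and 37.4% lower. The TMM factors of the hour 3 libraries were the lowest of all, at 0.516, 0.547 and 0.527, against 1.14 to 1.24 at hour 0. With library totals alone the all-gene median moved by a further -1.15, the share of higher calls among all calls went from 28.1% to 7.09%, Mfap5 was the single gene called higher, and Cd34 (-1.02, adjusted p = 0.000334) and Clec3b (-0.64, adjusted p = 0.00510) were called lower. Gsn, for example, was 1.30 ± 0.223 higher with TMM (edgeR adjusted p = 2.18e-05) and 0.12 higher with totals (adjusted p = 0.651), and it took 2.42% ± 0.280 of counts at hour 3 beside 2.22% ± 0.407 at hour 0. Mfap5 was higher by 1.88 ± 0.199 with TMM (adjusted p = 7.28e-09), and its libraries did not overlap hour 0 under either scaling. Pi16 (0.73 ± 0.300, adjusted p = 0.0378) and Clec3b (0.53 ± 0.200, adjusted p = 0.0263) were the weakest of the 9. Both lost the call with DESeq2 size factors (adjusted p = 0.0585 and 0.0516), with DESeq2 (0.0816 and 0.0504), with the filter of 5 CPM (0.108 and 0.0857), without the day 2 libraries (0.0951 and 0.0949), and without hour 0 replicate 11 (0.157 and 0.109), hour 3 replicate 5 (0.188 and 0.0769) or hour 3 replicate 6 (0.0896 and 0.0889). Clec3b lost it without hour 3 replicate 4 too (0.0534).

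Over all 6 groups each of the 10 genes changed (edgeR F test, adjusted p from 4.77e-17 for Clec3b to 1.72e-10 for Pi16), as did 83.9% of all genes tested. The order of RPKM levels kept Gsn first in every group, at 336 ± 70.1 RPKM at day 2, where it overlapped Ly6a at 249 ± 43.1 RPKM. Dcn and Apod followed each other within overlapping ranges at all 6 times. Mfap5 was the lowest at hour 0, hour 3 (46.2 RPKM, overlapping Cd34 at 54.5), day 8 and day 23, Cd34 at day 1 (4.38 ± 1.64 RPKM) and Pi16 at day 2 (7.39 ± 3.14 RPKM, overlapping Cd34 at 9.11 ± 2.94). Clec3b, 4th at hour 0, was 6th at day 1 (34.2 ± 5.84 RPKM) with Dpt in its range, and 4th again at day 23 (496 ± 73.4 RPKM).

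Across the 18 libraries the levels of most pairs moved together, which is given as a description since the points share group, set and depth. On log2 CPM, Pearson's r was 0.972 for Dcn and Apod, 0.950 for Pi16 and Clec3b, 0.946 for Dpt and Pi16, and 0.850 for the neighbours Dcn and Lum. Ly6a and Cd34 had r = -0.736 over all libraries, -0.949 within replicates 10 to 18 and 0.595 within replicates 1 to 9. Ly6a and Mfap5 had r = 0.531 over all libraries, and 0.694 and 0.819 in the sets. Apart from Mfap5, the sign for Ly6a with each other gene differed between the sets.

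Among 8826 other genes with a mean of at least 10 CPM, the one most like each member over the 18 libraries (highest r) was Ltbp4 for Gsn (r = 0.984), Ecm2 for Clec3b (0.984), Pcsk6 for Cd34 (0.979), Enpp2 for Lum (0.976), Trf for Dcn (0.975), Slit3 for Dpt (0.974), Tspan4 for Ly6a (0.973), Dlgap4 for Mfap5 (0.972), Pcolce2 for Pi16 (0.970) and F3 for Apod (0.958). The next were Eif4g3 (0.983) and Camk2n1 (0.978) for Gsn, Scara5 and Col6a1 (0.976 each) for Clec3b, Sdc2 and Adamtsl3 (0.974 each) for Cd34, and Plac8 (0.967) and Saa3 (0.957) for Ly6a. For Dpt they were Sphkap (0.970) and Enpp2 (0.968), for Pi16 Gpc3 (0.960) and Fzd4 (0.959), for Dcn Rnase4 (0.971) and F3 (0.969), and for Lum Rcn2 (0.975) and Itm2a (0.973). Arsi (0.958) and Socs5 (0.954) came next for Mfap5, and Tacc1 (0.953) and Laptm4a (0.949) for Apod.

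The relatives of the matrix members were followed as lists. Of 13 other small leucine-rich proteoglycans, 7 fell and none rose at day 1 (Aspn, Ecm2, Epyc, Fmod, Ogn, Omd and Podn), and 8 fell and none rose at day 2. Their median log2 changes were -1.99 and -1.45. The most abundant of them, biglycan (Bgn), stood at 1270.0 ± 61.0 CPM at hour 0, 986 ± 115 CPM at day 1 and 738 ± 184 CPM at day 2, and passed at day 2 only (-0.78, edgeR adjusted p = 0.00571). Podn fell at both times (-1.41, adjusted p = 8.10e-07, and -1.56, adjusted p = 3.18e-07), and Prelp at day 2 only (-1.47, adjusted p = 1.74e-06). Between day 8 and day 23, 2 of the 13 rose, Ecm2 and Ogn.

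Of 15 elastic fibre and microfibril genes other than Mfap5, 8 fell and 3 rose at day 1, and 9 fell and 3 rose at day 2, with medians of -0.64 and -0.63. The 3 rises were Efemp2, Lox and Ltbp2 at both times, as with Mfap5 at day 1. Lox, which crosslinks elastin and collagen, stood at 56.8 ± 8.67 CPM at hour 0 and 133 ± 72.7 CPM at day 1 (log2 change 1.23, adjusted p = 0.00268). Fbn1, the microfibril core protein, went from 1315 ± 176 to 524 ± 67.7 CPM (-1.33, adjusted p = 6.56e-06). Ltbp4, which tethers latent growth factor to microfibrils, went from 872 ± 169 to 103 ± 15.7 CPM (-3.08, adjusted p = 4.51e-11). Members of one fibre system thus moved both ways.

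Of 18 other adventitial and universal fibroblast genes, 12 fell and 2 rose at day 1 and again at day 2, with medians of -1.35 and -1.60, and 5 rose and none fell from day 8 to day 23 (Gfpt2, Igfbp6, Pcolce2, Scara5 and Tnxb; median 0.68). Col15a1, a basement membrane collagen, stood at 3815 ± 293 CPM at hour 0, 73.5 ± 24.5 CPM at day 1 and 404 ± 60.6 CPM at day 2 (log2 change at day 1 -5.70, adjusted p = 3.84e-15). Tenascin X (Tnxb) went from 1174 ± 184 to 535 ± 40.3 CPM at day 1 (-1.13, adjusted p = 0.000181). The rises at day 1 were those of Gfpt2, an enzyme of hexosamine synthesis (210 ± 23.9 to 402 ± 37.5 CPM, log2 change 0.94, adjusted p = 0.00120), and Has1, a hyaluronan synthase.

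Relatives of the other members moved without one direction. Of 13 Ly6 family genes tested besides Ly6a, 3 rose and 1 fell at day 1. Ly6e, an interferon-inducible gene, rose from 309 ± 29.4 to 1219 ± 183 CPM (log2 change 1.98, adjusted p = 4.23e-10). Ly6c1, which shares sequence with Ly6a, rose from 12.1 ± 4.99 to 97.5 ± 37.6 CPM (3.00, adjusted p = 8.90e-08). Of 7 gelsolin family genes, 2 rose and 3 fell at day 1: Capg, an actin-capping protein, rose from 41.4 ± 7.11 to 125 ± 18.1 CPM (1.60, adjusted p = 4.25e-08), and supervillin (Svil) fell from 236 ± 40.7 to 46.2 ± 8.80 CPM (-2.35, adjusted p = 1.63e-11). Of 14 CAP, sialomucin, lipocalin and tetranectin relatives, 2 rose and 4 fell. The lipocalin Lcn2 went from 2.58 ± 1.92 to 876 ± 161 CPM (8.35, adjusted p = 1.54e-13), and the CAP gene Crispld2 from 711 ± 78.9 to 211 ± 63.9 CPM (-1.75, adjusted p = 2.84e-07).

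Activation genes were set beside the resting ones. Of 15 activated fibroblast and myofibroblast genes 7 rose and 3 fell at day 1 (median 1.37), and 12 rose and 3 fell at day 2 (median 2.64). The 3 that fell at both times were Acta2, Tagln and Fap. Ptx3, a pattern-recognition pentraxin, went from 9.31 ± 9.36 to 884 ± 392 CPM at day 1 (log2 change 6.54, adjusted p = 2.43e-10). Thbs1 went from 448 ± 110 to 2419 ± 881 CPM (2.43, adjusted p = 1.38e-07). All 12 interferon genes rose at day 1 and day 2 (medians 4.22 and 3.26), Ifit3 from 83.0 ± 14.4 to 1175 ± 231 CPM at day 1 (3.82, adjusted p = 4.08e-13). At hour 3, across the library sets, 11 activation genes were higher than at hour 0 and 2 lower (median 3.40), and 11 of the 12 interferon genes were higher and none lower (median 3.10). Under library totals the counts were 10 higher and 3 lower, and 10 higher and 1 lower. Thbs1 stood at 79082 ± 12890 CPM at hour 3 (log2 change 7.46, adjusted p = 2.18e-15, and 6.29 with totals) and Ptx3 at 4165 ± 701 CPM (8.78, adjusted p = 1.66e-12, and 7.64 with totals). From day 8 to day 23, 6 activation genes fell and none rose, and 4 interferon genes fell and 1 rose.

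**Figure D3:**
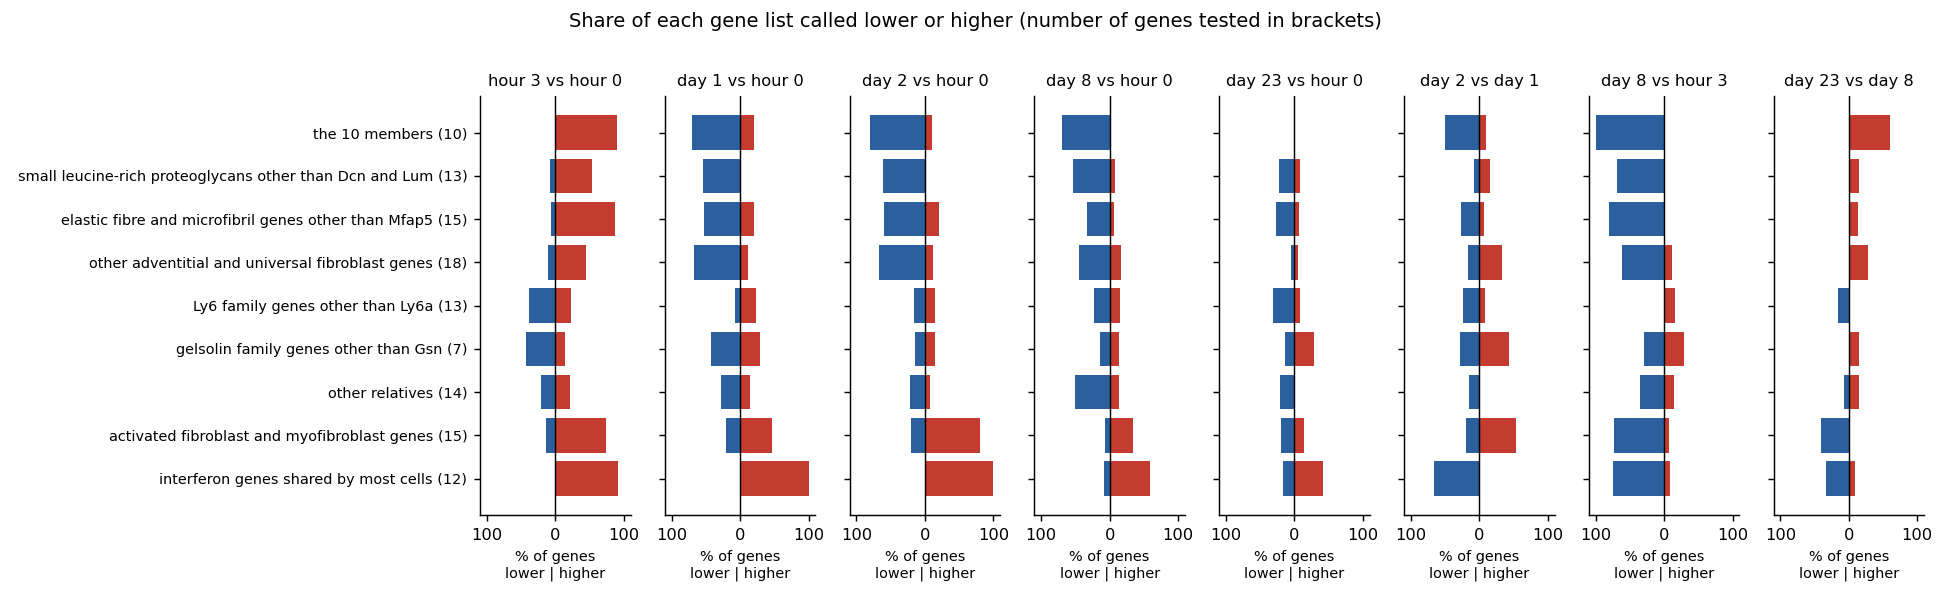
Share of each gene list called lower (blue, to the left) or higher (red, to the right) in 8 comparisons, in percent of the genes tested, whose number stands in brackets. At day 1 and day 2 against hour 0 the resting, proteoglycan, elastic fibre and adventitial lists extend mostly to the left and the 12 interferon genes wholly to the right.

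Markers of other cells moved too. The 7 mural cell markers summed to 969 to 1327 CPM over the hour 0 libraries, 117 to 133 CPM at day 1 and 155 to 243 CPM at day 2, with 5 lower and 2 higher at day 1. The 6 fibroblast markers summed to 19622 to 23225 CPM at hour 0, 8230.2 to 12414 CPM at day 1 and 12854 to 20737 CPM at day 2, and 5 of the 6 fell at day 1 and 1 rose. The day 2 sum of the fibroblast markers overlapped hour 0 with TMM and also under library totals (19454 to 31485 beside 23561 to 28106 CPM). The 6 Schwann cell and glial markers summed to 175 to 197 CPM at hour 0 and 29.8 to 36.5 CPM at day 1, and all 6 fell. At day 2 their sum was 189 to 254 CPM, which overlapped hour 0. Under library totals the day 2 sum lay above hour 0 (287 to 386 beside 199 to 239 CPM). For 9 blood endothelial markers, of cells that also express Cd34, the sums were 98.7 to 106 CPM at hour 0, 48.1 to 59.5 CPM at day 1 and 70.0 to 71.0 CPM at day 2, with Cldn5 at 0 in hour 0 and day 1. At day 8 the blood endothelial sum was 175 to 223 CPM. In all groups the 10 leukocyte markers summed to at most 159 CPM, with Cd3e at 0 at hour 3. Their sum was 12.6 to 26.2 CPM at hour 0 and 125 to 159 CPM at day 8. The part of these cells in the changes of the 10 genes was not tested.

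The 8 acinar and duct secretory markers summed to 29869 to 68031 CPM at hour 0. Their sum was 2229.6 to 3037 CPM at day 1, 229 to 1058 CPM at day 2, 68659 to 111984 CPM at hour 3, 43373 to 135728 CPM at day 8 and 69525 to 221346 CPM at day 23. Dcpp2 was at 0 at day 1. The day 1 and day 2 sums lay below every hour 0 library, and the day 8 sums overlapped hour 0. The 7 epithelial and myoepithelial markers summed to 2418 to 2913 CPM at day 8 and 344 to 549.6 CPM at hour 0, and the 3 erythroid markers to 27.9 to 70.5 CPM at day 8 and at most 12.9 CPM elsewhere. At hour 3, where 9 of the 10 genes were called higher, the TMM-scaled sums of secretory, epithelial (811 to 1127 CPM), mural (2061 to 2439 CPM) and fibroblast markers (26571 to 31301 CPM) lay above those of every hour 0 library. So did the TMM-scaled leukocyte sum. The blood endothelial sum went the other way, at 31.4 to 56.4 CPM beside 98.7 to 106 CPM at hour 0. Of the 8 blood endothelial markers tested, 5 were called lower and none higher. The adipocyte sum was lower too, and both sums were also lower with library totals alone. Hour 0 carried more stray counts than hour 3, and neither scaling removes stray counts. The mean adipocyte sum was highest at day 2, the group with the most stray counts. Their part in the adipocyte difference was not tested. With library totals alone the secretory sum (35397 to 61183 CPM beside 36145 to 77442 at hour 0), the epithelial sum (418 to 594 beside 417 to 626) and the mural sum (1126 to 1258 beside 1103 to 1605) overlapped hour 0, and the fibroblast sum was lower (13699 to 17101 beside 23561 to 28106). The leukocyte sum overlapped hour 0 under library totals as well, and 2 of the 10 leukocyte markers were called higher there and 5 lower. The part of these markers in the result was not tested either. Lymphatic endothelial markers summed to 2.68 to 20.03 CPM and adipocyte markers stayed under 10 CPM, with Adipoq, Cidec and Lep at 0 at hour 3, Cidec at 0 at day 8, and Cidec and Lep at 0 at day 23.

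**Figure D4:**
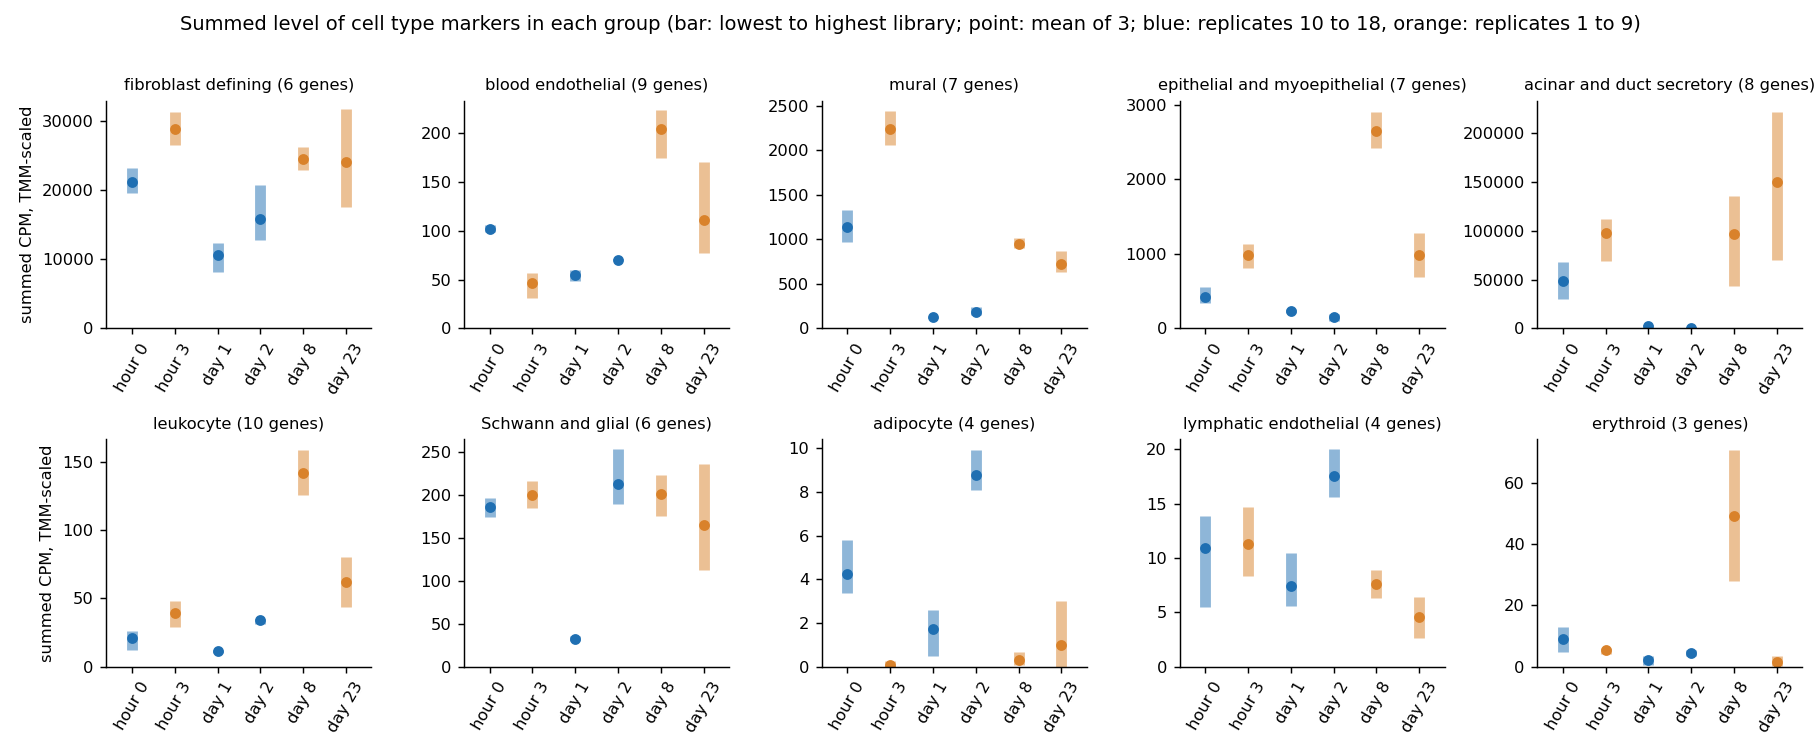
Summed TMM-scaled CPM of 10 marker lists by time group (linear axes from 0, a range of its own for each list); bars run from the lowest to the highest of 3 libraries, points are means, and colours are the library sets. Mural and secretory sums are low at day 1 and day 2, fibroblast sums are lowest at day 1, and epithelial, leukocyte and erythroid sums are highest at day 8.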

How the data were processed

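RNA was sequenced from 18 sorted stromal samples, made with 10 ng of total RNA each per the labels. For every Ensembl gene identifier the authors deposited a raw read count. They used, as the submitters' processing notes list them, FastQC, STAR, Subread and DESeq2 with mm10; versions, annotation, strand setting and treatment of reads that map to several places are not given in the sources used here. Gene names, positions and exon lengths came from GENCODE M21 on GRCm38: 55141 of 55401 identifiers matched, and the other 260 held 0.0241% of counts. One model of all 18 libraries was fitted in R 4.3.3 by edgeR 4.0.16: filterByExpr (minimum count 10, minimum total 15; 27525 genes tested), TMM scaling, quasi-likelihood F tests, Benjamini-Hochberg adjustment over all genes within a comparison and a threshold of 0.05. Genes past it are said to rise or fall. No pair of libraries of the same group agreed within counting noise, and pairs across groups were not compared. The 10 members and all lists were chosen with earlier results of these data known. All 10 members are named. Values were drawn up for the 3 genes of each list with the highest mean CPM. For the Ly6, gelsolin, other-relative, activation and interferon lists not all 3 are printed. Other genes are listed as called. Likeness used log2 CPM with a prior count of 2. The script was tested on simulated data, with a spread that was set and not taken from these libraries. For day 1 against hour 0 it recovered 100% of the genes set to a log2 change of -2 or 2. It recovered 54% of those set to -1 and 46% of those set to 1, and called 8 other genes. Changes of that size can thus be missed with 3 libraries a group. Alternatives were DESeq2 size factors, library totals, no filter, 5 CPM in 3 libraries, DESeq2 1.42.0, limma-voom (limma 3.58.1), fits of the 2 groups or of 1 set of 9 libraries, a fit without day 2, and leaving out each replicate.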

Additional observations from a re-analysis of the deposited data

Results flagged for a closer look

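For 6 of the 10 genes the change against uninfected glands differed between day 1 and day 2, by the direct test of day 2 against day 1 (edgeR quasi-likelihood, adjusted over all genes). Its log2 change does not compare with the hour 0 libraries. The estimate of spread behind its p does use them, as 1 model held all 18 libraries. Gelsolin (Gsn) was lower at day 2 than at day 1 by a log2 difference of -2.03 (adjusted p = 3.40e-07), Mfap5 by -1.22 (adjusted p = 5.55e-05), Ly6a by -0.97 (adjusted p = 0.00125), Apod by -0.94 (adjusted p = 0.00353) and Dcn by -0.75 (adjusted p = 0.00638). Cd34 was higher at day 2, by 1.06 (adjusted p = 0.00161). Scaled by library totals alone, the Dcn difference did not pass the same test (-0.48, adjusted p = 0.0826). In each of these 6 genes the 3 day 2 libraries did not overlap the 3 day 1 libraries. The genes were picked by the test on these same libraries, so that adds no separate support. The share of all genes without overlap was not computed. Of all genes tested, 11.2% were called lower and 12% higher at day 2 than at day 1. Groups of 3 are too small for a test of single outlying samples.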

How the results depend on the processing

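No paired analysis was possible because each replicate number from 1 to 18 was used once. The falls and rises of day 1 and day 2 against hour 0 kept their call in every alternative run. Of the 5 falls from day 1 to day 2, library totals alone kept 4 and lost that of Dcn. With library totals alone, genes called higher at hour 3 went from 9 to 1 and lower from 0 to 2, genes lower at day 23 against hour 0 from 0 to 4, and these log2 values changed sign: at hour 3 Cd34 -1.02, Clec3b -0.64 and Pi16 -0.43; Mfap5 0.32 at day 2 against hour 0; at day 23 against hour 0 Clec3b -0.19, Dpt -0.083, Lum -0.33, Ly6a -0.18 and Mfap5 -0.30; Pi16 0.18 at day 2 against day 1. Mfap5 at day 2 against hour 0 and Pi16 at day 2 against day 1 were 0.16 and 0.12 with DESeq2 size factors and 0.16 and 0.11 with DESeq2, which also called 1 gene lower at day 23 against hour 0. No filter gave 1 gene higher at day 8 against hour 0, Lum 0.014 there and Lum -0.14 at day 2 against day 1. The 5 CPM filter gave Mfap5 0.061 at day 2. The fit without day 2 gave Cd34 -0.0094 at hour 3. Lum at day 2 against day 1 was -0.039 in the fit of the 2 groups and -0.048 in that of the set, and the fit of the 2 groups called 3 genes higher at day 23 against day 8, where 6 were reported. Leaving out single replicates gave 3 to 7 genes there, 0 to 1 lower at day 23 and 0 to 1 higher at day 8 against hour 0. It also turned the sign of small values, which ran from -0.22 to 0.030 for Mfap5 at day 2 against hour 0, from -0.45 to 0.17 for Pi16 at day 2 against day 1, and, at day 23 against hour 0, from -0.50 to 0.10 for Apod, -0.29 to 0.38 for Lum and -0.31 to 0.0086 for Pi16. At day 23 against day 8 they ran from -0.089 to 0.57 for Lum and -0.44 to 0.0060 for Ly6a. The causes were not tested. Depth did not bring any of the 10 genes near 0, since the lowest had 140 counts (Clec3b).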
